A study of Mus musculus with 12 samples.

Results

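Genes that mark glomerular endothelial cells or their activation are described here, 10 of the 18201 genes with a probe set of their own on the arrays. They are Nos3, Esm1, Ehd3, Pecam1, Robo4, Apold1, Gpihbp1, Cdh5, Emcn and Plvap. Each is represented by the probe set that the platform annotation gives to that symbol alone and that has the highest mean over the 12 arrays, and all 10 passed the filter on low values. The members were chosen by name as endothelial genes and by values already seen on these arrays, their responses to glomerulonephritis and the strain differences. These differences between groups are therefore given as a description, and no count of members is read as evidence about the list.

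The study measured RNA of isolated glomeruli from female mice aged 8 to 10 weeks, 1 Affymetrix array per mouse and 3 mice in each of 4 groups. These were 129S2SvPAs mice with anti-GBM glomerulonephritis (anti-GBM GN), 129S2SvPAs controls, C57BL6J mice with anti-GBM GN, and C57BL6J controls. Both strains are inbred, and the labels name no transgene or deletion in any group. Nephrotoxic serum, which carries antibody against the glomerular basement membrane, was given on days 0, 1 and 2, and glomeruli were collected on day 4 with sieves of 100 and 45 µm. The sources used here do not give what the controls received. The labels of the 129S2SvPAs controls spell the strain 129S2SvPAS. By its title, the study was about the influence of the mouse strain on the glomerular response to this disease.

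Glomerular capillaries are lined by a thin, fenestrated endothelium that lies against the basement membrane, and it is the first cell layer that circulating antibody meets. Its cells are held together by VE-cadherin and PECAM-1, carry a coat of sialomucins and proteoglycans, and release nitric oxide made by endothelial nitric oxide synthase. Under injury or growth factor signals, endothelial cells change the genes of this identity programme and switch on early response and angiogenic genes.

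The log2 signals of single probe sets ran from 1.12 to 15.02, and the median of an array was 2.99 to 3.06. Around these medians lies a dense floor. A difference measured against a value on it is too small. Between arrays of a group, Pearson's r across the genes tested was 0.983 to 0.994, except that replicate 1 of 129S2SvPAs anti-GBM GN had 0.974 and 0.973 to the other arrays of its group. Genes are not independent replicates, so these values only describe the arrays. Podocyte markers were present, with a mean over 6 of them of 7.03 to 9.40 on the 12 arrays, but their levels were uneven. Group means ran from 10.56 to 12.24 for Podxl and from 8.70 to 10.27 for Synpo. They ran from 4.40 to 7.70 for Nphs1 and from 4.68 to 7.22 for Wt1, lowest in 129S2SvPAs anti-GBM GN. The lowest single value of the 6 was 3.42, close to the floor. RNA of tubules was also present: the mean of 12 proximal tubule markers was between 11.45 and 12.53 on every array. Bulk RNA cannot tell fewer endothelial cells from less RNA per endothelial cell, and this holds for every difference below. The number of arrays limits the precision.

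Most of these endothelial genes had higher means in nephritic than in control glomeruli, 8 of 10 in each strain, while Ehd3 was lower in both strains and Esm1 was lower in C57BL6J. In 129S2SvPAs 7 of the 10 rose and 1 fell at an adjusted p under 0.05 in limma, a moderated linear model fitted over all 11921 genes tested, where 10.6% of genes rose and 9.76% fell. The 7 were Apold1, Nos3, Pecam1, Robo4, Plvap, Gpihbp1 and Cdh5. In C57BL6J 3 rose, Apold1, Nos3 and Robo4, and 2 fell, Esm1 and Ehd3, where 4.78% of all genes rose and 2.31% fell. With the replicate number as a block 5 rose there, where 5.06% of all genes did, Pecam1 and Cdh5 being added. The median response of the members was 2.18 on the log2 scale in 129S2SvPAs and 0.89 in C57BL6J, beside 0.00 and -0.03 over all genes tested. In 129S2SvPAs all nephritic arrays lay above all controls for 7 members and below them for 1, as they did for 16.4% and 16.1% of all genes. In C57BL6J this was so for 5 members above and 2 below, as for 13.2% and 16% of all genes. The difference of the responses (129S2SvPAs minus C57BL6J) passed for 1 member, Esm1, where 0.268% of genes passed with a positive and 0.294% with a negative difference. It was positive for 9 of the 10, with a median of 1.31 beside 0.03 over all genes tested. At an unadjusted p under 0.05 in limma there were 6 members, Esm1 and Plvap among them. The others were Apold1 (1.81, SE 0.43), Gpihbp1 (1.49, SE 0.46), Robo4 (1.36, SE 0.37) and Pecam1 (1.26, SE 0.54), with adjusted p from 0.125 to 0.439. The share of all genes at an unadjusted p under 0.05 was not counted, here or for the lists below. Counts at that threshold therefore have nothing to be judged against and are a description only.

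**Figure D1:**
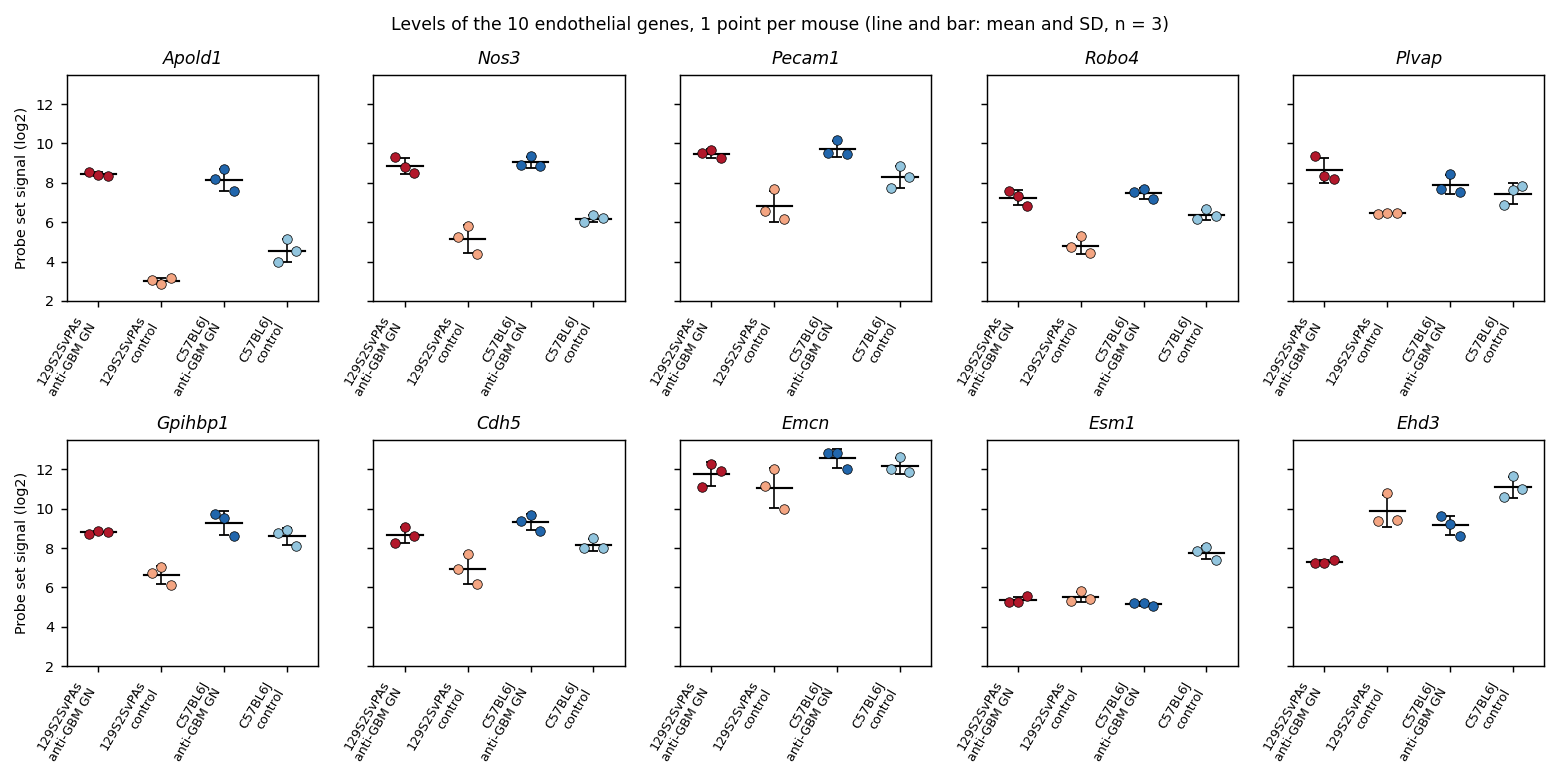
Level of each of the 10 genes as log2 probe set signal (y axis) in the 4 groups (x axis), with 1 point per mouse, a line at the mean and a bar of 1 SD (n = 3). Apold1 and Nos3 are separated by treatment in both strains, Ehd3 is lower with anti-GBM GN in both, and Esm1 is high in the C57BL6J controls (7.41 to 8.04) and between 5.05 and 5.81 in the other groups.

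Apold1, an early response gene of endothelial cells related to apolipoprotein L, had the widest range of the members. It read 8.54, 8.40 and 8.35 in 129S2SvPAs anti-GBM GN mice, against 3.05, 2.86 and 3.16 in 129S2SvPAs controls. The control values lie on the floor, so this strain's difference of 5.41 (SE 0.30, adjusted p = 4.2e-06 in limma), 42.4-fold on the signal scale, understates the rise. Only 3 of the 11921 genes had a larger response in this strain. In C57BL6J, Apold1 read 8.20, 8.68 and 7.56 with anti-GBM GN, against 3.98, 5.14 and 4.52 in controls, a difference of 3.60 (SE 0.30, adjusted p = 8.66e-05 in limma). The nephritic arrays of the strains overlapped, whereas the 129S2SvPAs controls all lay below the C57BL6J controls.

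Nos3 encodes endothelial nitric oxide synthase, which makes the vasodilator nitric oxide. The 129S2SvPAs anti-GBM GN mice read 9.30, 8.81 and 8.49, against 5.23, 5.82 and 4.37 in their controls, and the difference was 3.73 (SE 0.33, adjusted p = 4.48e-05 in limma), 13.2-fold. The C57BL6J anti-GBM GN mice read 8.89, 9.38 and 8.84, against 5.99, 6.34 and 6.21 in their controls, and the difference was 2.86 (SE 0.33, adjusted p = 0.000515), 7.24-fold. No nephritic array of either strain overlapped a control array. The responses differed by 0.87 (SE 0.47, adjusted p = 0.555), which did not pass.

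Pecam1 encodes CD31, an adhesion receptor at endothelial junctions that platelets and leukocytes also carry. Its level was 9.53, 9.67 and 9.25 in 129S2SvPAs anti-GBM GN mice, against 6.56, 7.69 and 6.18 in 129S2SvPAs controls, a rise of 2.67 (SE 0.38, adjusted p = 0.000781 in limma). In C57BL6J it was 9.49, 10.16 and 9.48 with anti-GBM GN, against 7.72, 8.85 and 8.32 in controls. These arrays did not overlap either, but the difference of 1.41 (SE 0.38) had adjusted p = 0.0519 and was not called. That value lay close to the threshold and passed in several other settings, among them array weights (adjusted p = 0.0201). With the replicate number as a block it was called (adjusted p = 0.009), and the C57BL6J groups are among those that the numbers may pair.

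Robo4 encodes an endothelial roundabout receptor that restrains vascular permeability. Its level was 7.59, 7.34 and 6.83 in 129S2SvPAs anti-GBM GN mice, against 4.72, 5.29 and 4.41 in 129S2SvPAs controls, a rise of 2.45 (SE 0.26, adjusted p = 0.000131 in limma). With anti-GBM GN it read 7.54, 7.67 and 7.17 in C57BL6J, against 6.16, 6.66 and 6.29 in controls, a rise of 1.09 (SE 0.26, adjusted p = 0.0291). The groups did not overlap in either strain. The C57BL6J call was lost without C57BL6J anti-GBM GN replicate 1 or 2 (adjusted p = 0.0941 and 0.129) and without C57BL6J control replicate 1 or 3 (adjusted p = 0.116 and 0.0917). It was also lost with no filter on low values (adjusted p = 0.0667 in limma). The same held with the mean of proximal tubule markers or of other pan-endothelial genes as a covariate, described below (adjusted p = 0.284 and 0.286).

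Plvap encodes the protein that forms the diaphragms of endothelial fenestrae and caveolae, which the fenestrae of adult glomeruli mostly lack. It read 9.38, 8.33 and 8.21 in 129S2SvPAs anti-GBM GN mice, against 6.40, 6.48 and 6.46 in 129S2SvPAs controls, a rise of 2.19 (SE 0.35, adjusted p = 0.00151 in limma). In C57BL6J the anti-GBM GN mice read 7.71, 8.46 and 7.55, against 6.85, 7.64 and 7.86 in controls. The C57BL6J groups overlapped, with a difference of 0.46 (SE 0.35, adjusted p = 0.519). The gap between the strains' responses was 1.74 (SE 0.50, adjusted p = 0.195) and did not pass.

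Gpihbp1 encodes the capillary protein that binds lipoprotein lipase and carries it to the vessel lumen. The 129S2SvPAs anti-GBM GN mice read 8.73, 8.86 and 8.83, against 6.74, 7.05 and 6.12 in their controls, a rise of 2.17 (SE 0.32, adjusted p = 0.000956 in limma). The C57BL6J anti-GBM GN mice read 9.74, 9.52 and 8.61, against 8.77, 8.94 and 8.11 in their controls. These groups overlapped, with a difference of 0.68 (SE 0.32, adjusted p = 0.257).

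Cdh5 encodes VE-cadherin, the adhesion molecule of endothelial adherens junctions. It read 8.28, 9.07 and 8.61 in 129S2SvPAs anti-GBM GN mice, against 6.95, 7.69 and 6.19 in 129S2SvPAs controls, a rise of 1.71 (SE 0.36, adjusted p = 0.00661 in limma). The C57BL6J levels were 9.39, 9.66 and 8.87 with anti-GBM GN, against 8.00, 8.49 and 7.99 in controls. All nephritic arrays lay above all controls there too, with a difference of 1.15 (SE 0.36, adjusted p = 0.0861) that was not called in this fit and was called with the replicate number as a block (adjusted p = 0.0147). A further probe set annotated to Cdh5 stayed between 2.23 and 2.88 on all arrays, below the array medians, and gives no information on the gene.

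Emcn encodes endomucin, a sialomucin of the endothelial surface, and was the member with no call in either strain. It read 11.09, 12.29 and 11.93 in 129S2SvPAs anti-GBM GN mice, against 11.14, 12.01 and 10.00 in 129S2SvPAs controls. With anti-GBM GN it read 12.82, 12.84 and 12.00 in C57BL6J, against 12.03, 12.62 and 11.86 in controls. Groups overlapped in both strains, and the differences were 0.72 (SE 0.48, adjusted p = 0.338 in limma) and 0.38 (SE 0.48, adjusted p = 0.732). These standard errors were the largest among the members, so changes of this size could not be detected.

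Esm1 encodes endocan, a secreted proteoglycan of endothelium that VEGF induces in cultured endothelial cells. It read 5.26, 5.26 and 5.55 in 129S2SvPAs anti-GBM GN mice, against 5.30, 5.81 and 5.44 in 129S2SvPAs controls, and these overlapped (difference -0.16, SE 0.18, adjusted p = 0.6 in limma). In C57BL6J it read 5.21, 5.22 and 5.05 with anti-GBM GN, against 7.84, 8.04 and 7.41 in controls. This fall of -2.60 (SE 0.18, adjusted p = 2.34e-05), 6.08-fold, was exceeded by 1 other gene among the 11921. The responses differed by 2.44 (SE 0.26, adjusted p = 0.0028). Ordered by level, C57BL6J controls stood above the other groups, and 129S2SvPAs controls (5.52 ± 0.26), 129S2SvPAs anti-GBM GN (5.36 ± 0.17) and C57BL6J anti-GBM GN (5.16 ± 0.10; SD, n = 3) followed with no call between 129S2SvPAs anti-GBM GN and either its controls or the nephritic C57BL6J mice.

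Ehd3 encodes an ATPase of endocytic recycling whose kidney expression lies chiefly in glomerular endothelium. It read 7.26, 7.24 and 7.42 in 129S2SvPAs anti-GBM GN mice, against 9.38, 10.81 and 9.42 in 129S2SvPAs controls, a fall of -2.56 (SE 0.39, adjusted p = 0.00117 in limma), 5.91-fold. With anti-GBM GN it read 9.61, 9.21 and 8.64 in C57BL6J, against 10.61, 11.67 and 11 in controls, a fall of -1.94 (SE 0.39, adjusted p = 0.0138), 3.84-fold. Nephritic and control arrays were separate in each strain. The other Ehd3 probe set gave -2.34 and -1.65 in the same order. The C57BL6J call was lost by a narrow margin without C57BL6J anti-GBM GN replicate 2 (adjusted p = 0.0538) or C57BL6J control replicate 2 (adjusted p = 0.0549).

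**Figure D2:**
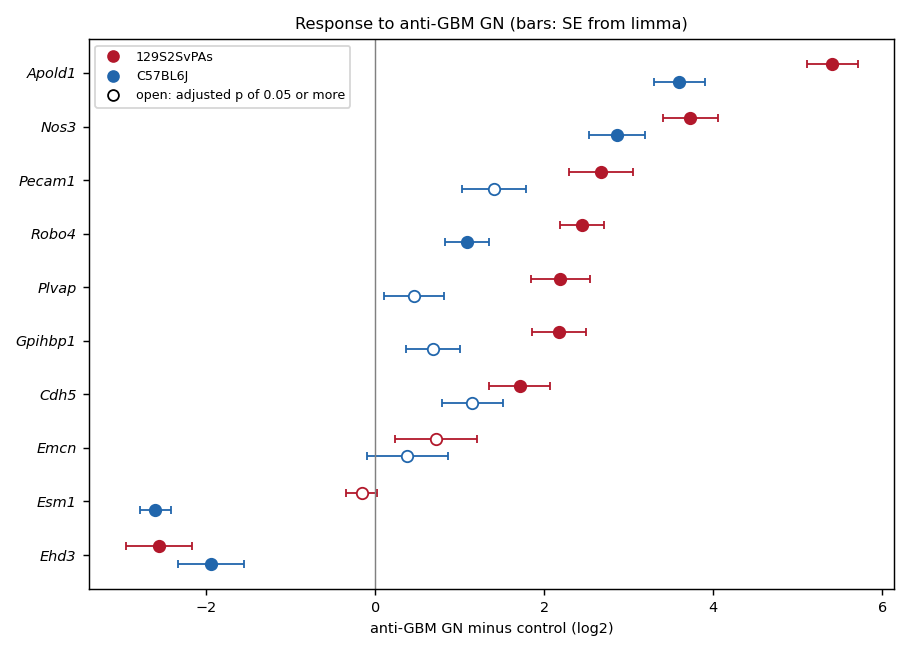
Difference between anti-GBM GN and control (x axis, log2) for each member (rows) in 129S2SvPAs (red) and C57BL6J (blue), with bars of 1 SE from limma and open points where the adjusted p was 0.05 or more. Apold1 (5.41 and 3.60) and Nos3 (3.73 and 2.86) lie farthest right, and Ehd3 (-2.56 and -1.94) and Esm1 in C57BL6J (-2.60) lie left of 0.

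Promoter sequence is shown for 4 members whose levels moved in opposite directions, so that their start sites can be compared. RefSeq windows of build GRCm38.p6, running from 250 bases before to 50 bases after the start site, were matched for 5 of the 10 members; Nos3, Pecam1, Gpihbp1, Cdh5 and Plvap had no entry. All windows below are on the plus strand, 5′ to 3′. Capitals mark matches, on either strand, to AGGAAG, a core bound by ETS factors, and to TATAAA, the TATA box; TGANTCA, bound by AP-1, and AGATAA, bound by GATA factors, were also searched, and no 2 matches overlapped.
Apold1 (chr6:134981751-134982050): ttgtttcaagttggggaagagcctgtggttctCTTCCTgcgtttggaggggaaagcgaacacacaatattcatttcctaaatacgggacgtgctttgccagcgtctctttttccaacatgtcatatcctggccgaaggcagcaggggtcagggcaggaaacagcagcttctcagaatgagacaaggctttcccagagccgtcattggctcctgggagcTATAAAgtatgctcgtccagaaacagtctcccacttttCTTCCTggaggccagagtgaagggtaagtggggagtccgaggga
Robo4 (chr9:37401722-37402021): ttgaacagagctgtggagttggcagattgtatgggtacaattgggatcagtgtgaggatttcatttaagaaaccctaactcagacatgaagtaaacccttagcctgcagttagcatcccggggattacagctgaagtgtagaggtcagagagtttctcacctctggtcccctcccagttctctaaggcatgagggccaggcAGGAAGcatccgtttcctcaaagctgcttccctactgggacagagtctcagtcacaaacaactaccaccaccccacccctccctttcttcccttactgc
Ehd3 (chr17:73804591-73804890): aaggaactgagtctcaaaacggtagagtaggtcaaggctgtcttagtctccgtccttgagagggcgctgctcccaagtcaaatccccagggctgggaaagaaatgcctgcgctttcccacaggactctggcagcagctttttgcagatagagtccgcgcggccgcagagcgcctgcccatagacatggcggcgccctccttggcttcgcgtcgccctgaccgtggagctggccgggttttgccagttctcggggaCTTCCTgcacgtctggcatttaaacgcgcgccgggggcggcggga
Esm1 (chr13:113209409-113209708): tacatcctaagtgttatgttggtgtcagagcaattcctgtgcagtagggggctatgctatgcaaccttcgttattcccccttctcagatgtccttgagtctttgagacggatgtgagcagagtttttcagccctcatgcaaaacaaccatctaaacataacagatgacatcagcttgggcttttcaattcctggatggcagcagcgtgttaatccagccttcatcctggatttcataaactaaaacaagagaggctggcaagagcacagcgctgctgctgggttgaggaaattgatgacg

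The Apold1 window held AGGAAG on the minus strand at positions -218 and 7 from the start site and TATAAA at -32. Robo4 held AGGAAG at -49 and Ehd3 held it on the minus strand at 6. The Esm1 window held none of the 4 motifs. Among 32851 windows of the same length, 35.4% held AGGAAG, 13.6% held TATAAA, 7.81% held TGANTCA and 11.2% held AGATAA. The ETS core is thus common in promoters at large, and it was found in members that rose (Apold1, Robo4) and in a member that fell (Ehd3). The window of Emcn, the member with no call, is not printed and held it at -93 and, on the minus strand, at -174.

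Between the controls of the strains, all 10 members differed in the same direction. They had lower means in 129S2SvPAs controls than in C57BL6J controls, with a median difference of -1.35 beside 0.00 over all genes tested. At an adjusted p under 0.05, 5 were called lower, where 5.11% of genes were called lower and 3.32% higher: Esm1 (-2.25, SE 0.18, adjusted p = 2.76e-05 in limma), Gpihbp1 (-1.97, SE 0.32), Robo4 (-1.56, SE 0.26), Apold1 (-1.52, SE 0.30) and Pecam1 (-1.49, SE 0.38, adjusted p = 0.0379). For 8 of the 10 the 129S2SvPAs control arrays all lay below the C57BL6J control arrays, as they did for 14.3% of all genes. They lay above for no member, against 17.3% of all genes. Ehd3 and Emcn overlapped, because 129S2SvPAs control replicate 2 read 10.81 for Ehd3 and 12.01 for Emcn, above its group. Without that array 8 members were called lower, where 5.55% of all genes were. Same-numbered arrays of the control groups correlated, so the numbers may pair them. With the replicate number as a block 7 were called lower, where 6.02% of all genes were: Nos3 (adjusted p = 0.0478 in limma) and Cdh5 (adjusted p = 0.0105) were added. The Pecam1 call was lost without 129S2SvPAs anti-GBM GN replicate 2 or 3, 129S2SvPAs control replicate 1 or 3, C57BL6J anti-GBM GN replicate 1 or 3, or C57BL6J control replicate 2 or 3 (adjusted p = 0.0504 to 0.158 in limma).

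In nephritic glomeruli the levels of most members overlapped between the strains, 8 of 10, as did 72.1% of all genes tested. The differences between 129S2SvPAs and C57BL6J anti-GBM GN had a median of -0.22 over the members, beside 0.03 over all genes tested. The call went to Ehd3 alone, lower in 129S2SvPAs by -1.85 (SE 0.39, adjusted p = 0.0158 in limma), where 4.89% of genes were called lower and 3.49% higher. Its arrays did not overlap, as for 12.6% of all genes with 129S2SvPAs lower. The call was lost without C57BL6J anti-GBM GN replicate 1 or 2 (adjusted p = 0.0678 and 0.0578). Nos3 differed by -0.17 (SE 0.33), Pecam1 by -0.23 (SE 0.38), Robo4 by -0.21 (SE 0.26) and Apold1 by 0.28 (SE 0.30). Esm1 arrays did not overlap, with 129S2SvPAs higher by 0.20 (SE 0.18, adjusted p = 0.569), as was the case for 15.3% of all genes with 129S2SvPAs higher. Contrasts that share a group share its arrays, so the strain differences and the responses are not independent of each other.

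**Figure D3:**
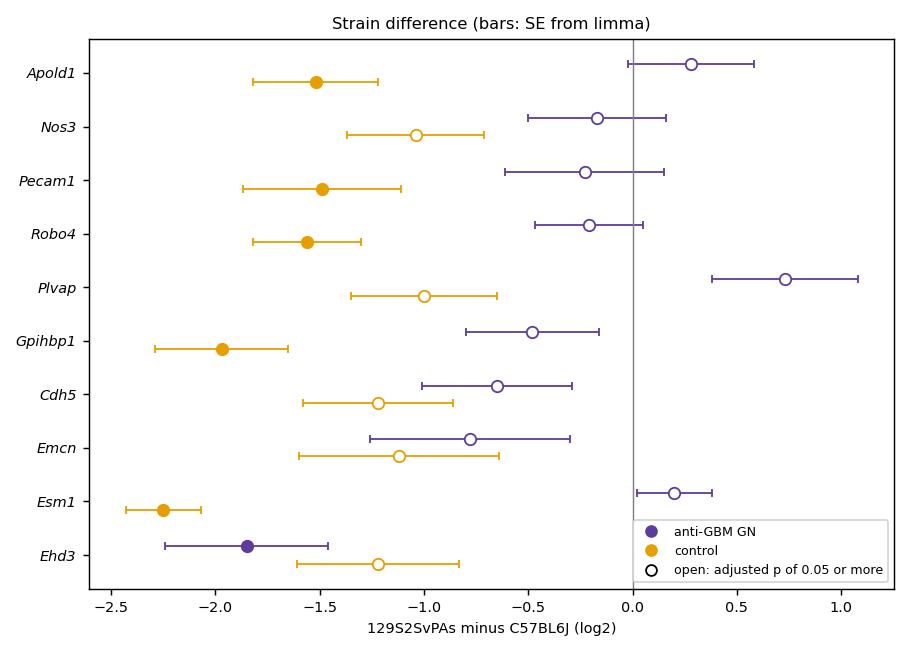
Difference between 129S2SvPAs and C57BL6J (x axis, log2) for each member (rows), in anti-GBM GN (purple) and in controls (orange), with bars of 1 SE from limma and open points where the adjusted p was 0.05 or more. All 10 control differences lie left of 0, with Esm1 (-2.25) farthest, while with anti-GBM GN only Ehd3 (-1.85) is filled.

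Other endothelial genes were low in the 129S2SvPAs controls too. The mean level of 25 other pan-endothelial genes was 8.54, 8.72 and 8.45 in 129S2SvPAs anti-GBM GN, against 7.11, 7.86 and 6.65 in 129S2SvPAs controls. It was 9.14, 9.31 and 8.68 in C57BL6J anti-GBM GN, against 8.07, 8.66 and 8.19 in C57BL6J controls. Replicates 1 and 3 of the 129S2SvPAs controls held the lowest values, and the groups of each strain were separate. Of these 25 genes 11 were called lower in 129S2SvPAs than in C57BL6J controls, where 5.11% of all genes were called lower. None was called in anti-GBM GN in limma, where 4.89% of all genes were called lower. At an unadjusted p under 0.05, 6 were lower there and 0 higher.

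Markers of other cell types also differed between groups, not all in the same way. All 6 podocyte markers tested were called lower in 129S2SvPAs than in C57BL6J controls, where 5.11% of all genes were. Their mean was 7.08 to 7.91 in 129S2SvPAs controls, against 8.75 to 9.40 in C57BL6J controls. In anti-GBM GN 4 of them were called lower in 129S2SvPAs, where 4.89% of all genes were, with means of 7.03 to 7.39 against 8.36 to 9.32. With anti-GBM GN 2 podocyte markers rose and 2 fell in 129S2SvPAs, where 10.6% and 9.76% of all genes did. None was called in C57BL6J. Of the 12 proximal tubule markers 6 fell and none rose with anti-GBM GN in 129S2SvPAs in limma, where 9.76% of all genes fell and 10.6% rose. At an unadjusted p under 0.05 the counts of these markers were 8 and 0. Their mean was 11.45 to 11.63 in 129S2SvPAs anti-GBM GN, against 12.32 to 12.53 in 129S2SvPAs controls. In C57BL6J 2 fell, where 2.31% of all genes did, with means of 11.74 to 12.10 in anti-GBM GN, against 12.16 to 12.47 in controls. Of 8 markers of later nephron segments (loop, distal, collecting duct), Slc12a1, Calb1, Pvalb and Egf fell and Aqp2 rose in 129S2SvPAs, and Pvalb fell in C57BL6J. Their mean was 9.53 to 9.88 in 129S2SvPAs anti-GBM GN, against 10.63 to 10.78 in 129S2SvPAs controls, and 9.42 to 10.14 in C57BL6J anti-GBM GN, against 10.04 to 10.32 in C57BL6J controls. These genes, and those of smooth muscle, were named after their values were seen. The mean of 3 smooth muscle markers was 7.60 to 7.65 in 129S2SvPAs anti-GBM GN, against 4.78 to 5.07 in 129S2SvPAs controls, and 8.20 to 8.39 in C57BL6J anti-GBM GN, against 5.71 to 6.17 in C57BL6J controls. Of these Tagln rose by 5.70 in 129S2SvPAs and 5.29 in C57BL6J and Acta2 by 2.33 and 1.64, while Myh11 differed by 0.15 and 0.22 and was not called, and Cnn1 did not pass the filter. The mean of 6 mesangial and pericyte markers was 7.42 to 8.04 in 129S2SvPAs anti-GBM GN, against 6.86 to 6.95 in 129S2SvPAs controls, and 7.50 to 7.96 in C57BL6J anti-GBM GN, against 6.67 to 7.41 in C57BL6J controls. The part of podocytes, distal tubules, smooth muscle and mesangial cells in the endothelial results was not tested.

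The proximal tubule mean was also fitted as a covariate. It does not overlap between anti-GBM GN and control in either strain, so it cannot be told apart from the treatment. Its fall was largest in Hpd and Cyp2e1, as given above. In that fit none of the members passed in 129S2SvPAs in limma, where 3 of 11921 genes rose and 0 fell, and 5 members were higher at an unadjusted p under 0.05. The fitted differences in 129S2SvPAs had larger standard errors and were 4.75 for Apold1 (SE 0.92), 4.05 for Nos3 (SE 1.03), 3.71 for Pecam1 (SE 1.15) and 2.47 for Robo4 (SE 0.81). Those of Plvap (2.60, SE 1.09), Cdh5 (1.72, SE 1.11), Ehd3 (-2.74, SE 1.23) and Gpihbp1 (0.42, SE 0.81) stood beside 2.19, 1.71, -2.56 and 2.17 without the covariate. The part of tubule RNA in these differences was not tested. In C57BL6J, Nos3 and Apold1 rose and Esm1 fell in the same fit, where 0.981% of genes rose and 0.218% fell, and Ehd3 was at -2.01 (SE 0.64, adjusted p = 0.195).

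Blood cells can also carry Pecam1. Of the platelet markers 5 were tested, and their mean was 4.39 to 4.88 in 129S2SvPAs anti-GBM GN, against 2.88 to 2.93 in 129S2SvPAs controls, and 5.24 to 5.99 in C57BL6J anti-GBM GN, against 3.08 to 3.81 in C57BL6J controls. In limma 2 of these 5 rose in 129S2SvPAs and 3 in C57BL6J, and none fell, where 10.6% and 4.78% of all genes rose. Pf4 rose by 4.86 in 129S2SvPAs and 4.31 in C57BL6J, Ppbp by 2.24 and 4.77, and Gp9 by 1.36 in C57BL6J. The lowest platelet values lie under the array medians. The mean of 5 macrophage and pan-leukocyte markers was 4.35 to 4.78 in 129S2SvPAs anti-GBM GN, against 4.50 to 5.61 in 129S2SvPAs controls, and 5.56 to 6.47 in C57BL6J anti-GBM GN, against 5.33 to 6.04 in C57BL6J controls. None of these 5 was called in either response in limma, and at an unadjusted p under 0.05 1 was lower in 129S2SvPAs and 2 were higher in C57BL6J. Between the nephritic groups 3 of the 5 were called lower in 129S2SvPAs than in C57BL6J, where 4.89% of all genes were. Itgam, Cd3e and Cd79a, which mark myeloid, T and B cells, did not pass the filter on low values. The part of platelets and leukocytes in the Pecam1 result was not tested.

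**Figure D4:**
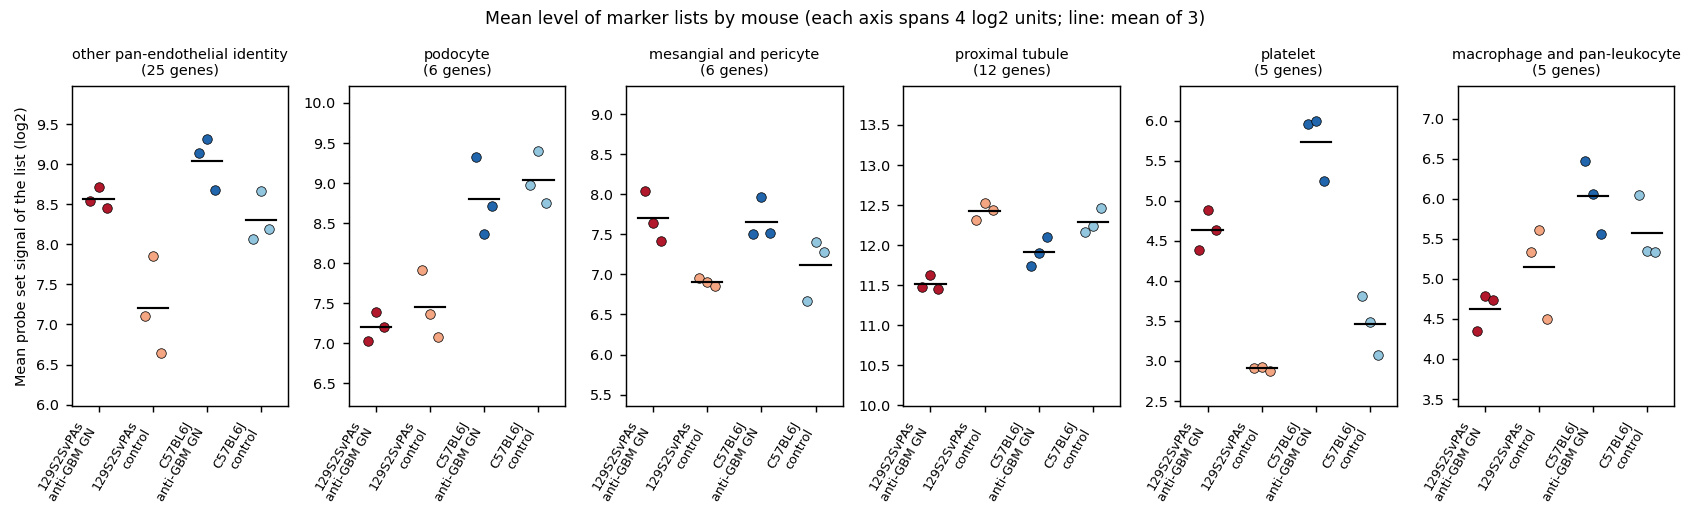
Mean log2 signal of 6 marker lists (y axis, each spanning 4 log2 units) by mouse in the 4 groups (x axis), with a line at the mean of 3. The pan-endothelial mean is lowest in the 129S2SvPAs controls (6.65 to 7.86), the podocyte mean is lower in both 129S2SvPAs groups, and the proximal tubule mean is lower with anti-GBM GN in each strain. Within the proximal tubule list the fall was largest for Hpd and Cyp2e1.

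The pan-endothelial mean was fitted as a covariate in the same way. It does not overlap between treatments in either strain or between the control groups, so it cannot be told apart from these comparisons either. In a fit with that mean as a covariate, Apold1 (4.81, SE 0.53, adjusted p = 0.00255), Nos3 (2.43, SE 0.39, adjusted p = 0.0136) and Robo4 (1.38, SE 0.28, adjusted p = 0.0332) still rose in 129S2SvPAs in limma, where 1.62% of genes rose and 1.32% fell. Ehd3 fell there by 4.24 on the log2 scale (SE 0.40, adjusted p = 0.00133). In C57BL6J, Apold1 rose by 3.28 (SE 0.38) and Nos3 by 2.15 (SE 0.27), whereas Ehd3 and Esm1 each fell by 2.85 (SE 0.28 and 0.21). Cdh5 and Gpihbp1 no longer passed in 129S2SvPAs, at 0.08 (SE 0.28) and 0.97 (SE 0.41), and Pecam1 and Plvap were at 0.94 (SE 0.32, adjusted p = 0.166) and 1.71 (SE 0.64, adjusted p = 0.21). Between controls of the strains, Esm1 alone was called under this covariate, where 1.08% of genes were called lower. For Cdh5 and Emcn the strain difference in controls turned to 0.09 and 0.55, neither of them called.

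The other endothelial genes give the setting in which the members moved. Of the 25 pan-endothelial genes 15 rose and none fell in limma in 129S2SvPAs, with a median of 1.18, and 6 rose and none fell in C57BL6J, with a median of 0.53. At an unadjusted p under 0.05, 1 was lower in each strain. Over all genes tested, 10.6% rose and 9.76% fell in 129S2SvPAs, and 4.78% rose and 2.31% fell in C57BL6J. These shares also stand beside the counts of the lists that follow. Cd93, a lectin-like receptor of endothelium, rose by 3.28 (SE 0.23) in 129S2SvPAs and by 2.63 (SE 0.23) in C57BL6J. Thbd, the anticoagulant receptor thrombomodulin, rose by 3.31 (SE 0.40) in 129S2SvPAs and by 2.64 (SE 0.40) in C57BL6J. Ecscr, an endothelial surface protein, rose by 2.75 (SE 0.26) in 129S2SvPAs and by 1.63 (SE 0.26) in C57BL6J. The repressor Bcl6b rose by 1.85 (SE 0.20) in 129S2SvPAs and by 2.08 (SE 0.20) in C57BL6J. Of 9 further glomerular endothelial genes 2 rose in 129S2SvPAs and 1 in C57BL6J, and the medians were -0.17 and -0.33. None fell in limma, but at an unadjusted p under 0.05 4 were lower in 129S2SvPAs and 3 in C57BL6J. The Nos3-binding adaptor Nostrin rose in both strains, by 1.35 (SE 0.35) and 1.39 (SE 0.35), and the transcription factor Sox17 by 1.63 (SE 0.39) in 129S2SvPAs.

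Transcription factors of endothelium rose in 6 of 15 in 129S2SvPAs, with a median of 0.78, and in C57BL6J 2 rose and 1 fell, with a median of 0.27. Klf4, induced by laminar flow, rose by 3.10 (SE 0.36) in 129S2SvPAs and by 1.71 (SE 0.36) in C57BL6J, and Sox7 by 1.92 (SE 0.41) and 1.63 (SE 0.41). The Notch target Hey1 fell by 1.95 in C57BL6J (SE 0.27, adjusted p = 0.00163 in limma). Its mean was 4.83 in C57BL6J controls and on the floor in the other groups (2.75 to 2.98), so a fall in 129S2SvPAs could not be seen. Tip cell and angiogenic genes rose in 4 of 12 in 129S2SvPAs, with a median of 0.63, and in C57BL6J 6 rose and 1 fell, with a median of 0.86. Aplnr, the apelin receptor, rose by 2.48 (SE 0.42) in 129S2SvPAs and by 3.84 (SE 0.42) in C57BL6J, where its ligand Apln rose by 1.43 (SE 0.24). Pdgfb, which recruits pericytes, rose by 2.62 (SE 0.27) in 129S2SvPAs and by 1.14 (SE 0.27) in C57BL6J. The urokinase receptor Plaur rose by 1.99 (SE 0.35) in 129S2SvPAs and by 1.33 (SE 0.35) in C57BL6J. The Notch ligand Dll4 fell by 1.62 (SE 0.26) in C57BL6J. No gene of this list was called for a difference of responses in limma, where 0.268% of all genes passed with a positive and 0.294% with a negative difference. So few genes passed that none would be looked for in a list of this size. At an unadjusted p under 0.05, 2 had a positive and 2 a negative difference.

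Genes that work with single members were counted in the same way, beside the same shares of all genes. In the nitric oxide pathway 5 of 11 rose and 1 fell in 129S2SvPAs, and 1 rose in C57BL6J; the other nitric oxide synthases, Nos1 and Nos2, did not pass the filter. Gch1, which makes the cofactor of nitric oxide synthases, rose by 2.68 (SE 0.40) and Ddah2, which clears an inhibitor of them, by 1.15 (SE 0.28) in 129S2SvPAs. Gucy1a1, a subunit of the nitric oxide receptor, fell by 0.97 there (SE 0.24). Among caveolar and EHD family genes 6 of 9 rose in 129S2SvPAs and 4 in C57BL6J, with medians of 1.49 and 0.44. Ehd2, a relative of Ehd3 found at caveolae, rose by 2.44 (SE 0.17) in 129S2SvPAs and by 1.87 (SE 0.17) in C57BL6J, opposite to Ehd3. The caveolar coat genes Cavin1 and Cavin3 rose by 2.22 (SE 0.19) and 2.54 (SE 0.32) in 129S2SvPAs, and by 1.63 (SE 0.19) and 1.63 (SE 0.32) in C57BL6J.

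Among junction partners of VE-cadherin and Slit-Robo genes, 4 of 12 rose and 1 fell in 129S2SvPAs and 2 rose in C57BL6J, with a median of 0.18 in each. Jam2, a junctional adhesion molecule of endothelium, rose by 4.30 (SE 0.42) in 129S2SvPAs and by 3.32 (SE 0.42) in C57BL6J. The catenins moved little, with Ctnna1 up by 0.53 (SE 0.11) in 129S2SvPAs and Ctnnd1 up by 0.46 (SE 0.11) in C57BL6J. Of 4 lipoprotein lipase partners of Gpihbp1, Lpl among them, none was called in either strain in limma, and 1 was lower in each strain at an unadjusted p under 0.05.

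**Figure D5:**
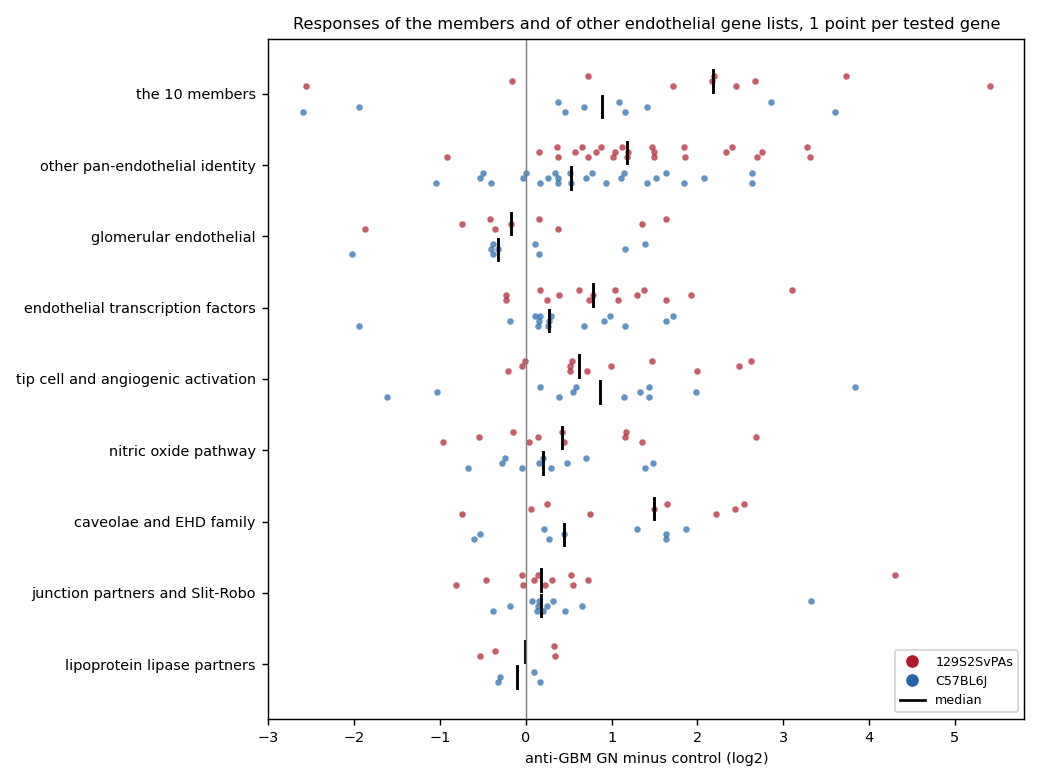
Difference between anti-GBM GN and control (x axis, log2) of each tested gene in the 10 members and in 8 other endothelial lists (rows), in 129S2SvPAs (red) and C57BL6J (blue), with the median of each as a black bar. The members' medians (2.18 and 0.89) and the pan-endothelial medians (1.18 and 0.53) lie right of 0, and those of the glomerular endothelial list (-0.17 and -0.33) lie left of it.

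Across the 12 arrays, which share groups and treatment, the members' levels fell into sets that tracked each other. Pecam1 and Robo4 had Pearson's r = 0.98, Nos3 and Apold1 0.97, and Pecam1 and Cdh5 0.95. Esm1 and Ehd3 had 0.73 with each other, and Ehd3 had -0.68 with Apold1 and -0.63 with Nos3. The genes outside the list most like each member over the 12 arrays were named by the highest Pearson's r. For Cdh5 these were Icam2 (0.993), an endothelial adhesion molecule, She (0.992) and Crip2 (0.987), and for Robo4 they were Pdgfb (0.991), the thrombin receptor F2r (0.990) and Plekho1 (0.988). Nos3 was most like Tmbim1 (0.993), Plec (0.991) and Cavin1 (0.990), and Apold1 most like Phlda3 (0.995), Tpm3 (0.988) and Tuba1a (0.983). Pecam1 was most like Map7d1 (0.988), Esyt1 (0.988) and Cd99 (0.986).

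Gpihbp1 was most like Myct1 (0.976), an endothelial membrane protein, Msrb3 (0.972) and Gpx7 (0.967). Emcn tracked Gimap4 (0.988), Plpp1 (0.984) and Sgce (0.980), and Plvap tracked Coro1c (0.966), Osmr (0.952) and Eml1 (0.948). Esm1, with its high C57BL6J controls, was most like Gm266 (0.977), Smco3 (0.963) and Slc7a2 (0.962). Ehd3 was most like Lypd6 (0.969), Id4 (0.959) and Atxn7 (0.954). Of these 30 genes 4 were also on an endothelial list used here, Icam2, Pdgfb, Cavin1 and Myct1. Such likeness over 12 arrays follows the 4 groups and is a description only.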

How the data were processed

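The deposited table holds log2 probe set signals of 12 Affymetrix mouse arrays, rounded to 2 decimals by the authors. MAS5 and GCRMA are both named in the submitters' processing notes, which give neither versions nor the method behind the deposited log2 values. Log2 was inferred from their range. No scan date was used here. Of 45037 probe sets 34957 had 1 gene symbol in the platform annotation, 920 several and 9160 none. Each of 18201 genes took its probe set with the highest mean. Genes above 3.03, the median of the table, on at least 3 arrays were tested (11921).

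A group-means model of the 12 arrays was fitted with limma 3.58.1 in R 4.3.3, with Benjamini-Hochberg adjustment over all genes in each of 5 contrasts. The fit was tested on simulated data. Labels give separate mice as replicates. Deviations of same-numbered arrays from their group means correlated above 0.1 in all 3 pairs between the C57BL6J groups (0.21 to 0.33) and between the control groups (0.24 to 0.28). There the numbers may pair arrays. Between other groups, differently numbered arrays reached 0.356 (129S2SvPAs anti-GBM GN replicate 1 and C57BL6J control replicate 3), so such values do not settle a pairing. The block was fitted over all 12 arrays, also where the numbers were not taken to pair. No label says what same-numbered arrays share. The members, gene lists and tests were chosen with earlier results of these data known. Named list genes are up to 3 per list and strain with the lowest p among those called. Of the listed genes, those not tested were left out. Alternatives are given in the closing section. Figures used Python 3.11.15 and matplotlib 3.10.9.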

Additional observations from a re-analysis of the deposited data

Results flagged for a closer look

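Esm1 was singled out because its response to anti-GBM GN differed between the strains by a test of the difference itself. The response was -0.16 in 129S2SvPAs (SE 0.18) and -2.60 in C57BL6J (SE 0.18), so the difference, 129S2SvPAs minus C57BL6J, was 2.44 (SE 0.26, adjusted p = 0.0028 in limma). All 3 nephritic C57BL6J arrays lay below all 3 C57BL6J controls, and the 129S2SvPAs groups overlapped. The 129S2SvPAs controls already read 5.30 to 5.81, near the 5.05 to 5.22 of the nephritic C57BL6J mice. Whether a further fall from that level could be measured was not tested. Over the alternatives the difference was 2.15 to 2.62, with adjusted p from 0.0016 to 0.221. It failed the threshold with the proximal tubule mean as a covariate. Esm1 was among the members because this difference was already known. Groups of 3 arrays were not searched for single outlying arrays.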

How the results depend on the processing

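The 50 member differences were recomputed under 14 kinds of alternative, the 10 differences of responses under 13 of them. Of 1240 values, 1158 kept their direction and side of the threshold, 41 lost and 22 gained a call, and 19 turned direction, none of them among the 20 called differences. With the proximal tubule mean as a covariate, 0 members rose and 0 fell in 129S2SvPAs, 1 fell in C57BL6J, 0 passed for the difference of responses and 0 were lower in 129S2SvPAs anti-GBM GN. In that fit 3 of 11921 genes rose and 0 fell in 129S2SvPAs, 0.218% fell in C57BL6J and 1.38% were lower in 129S2SvPAs anti-GBM GN. For the difference of responses 0.00839% of genes passed with a positive and 0.0252% with a negative difference. Standard errors grew there, and the fitted differences of Apold1, Nos3 and Ehd3 in 129S2SvPAs were 4.75, 4.05 and -2.74. With the pan-endothelial mean as a covariate, 3 rose in 129S2SvPAs and 1 was lower in 129S2SvPAs controls, as did 1.62% and were 1.08% of all genes. Array weights and a fit of only the groups compared each gave 5 rises in C57BL6J, where 8.58% and 5.13% of all genes rose. A fit with the replicate number as a block also gave 5 (Pecam1 and Cdh5 added), and 7 members lower in 129S2SvPAs controls; 5.06% of all genes rose and 6.02% were lower there. Same-numbered arrays had correlated deviations over 0.1 in all 3 pairs of these comparisons, and in 1 of 3 between the 129S2SvPAs groups and between the nephritic groups, so the numbers were not taken to pair those. The block changed no other member call. Leaving out each array in turn gave 2 to 5 rises in C57BL6J (5 without 129S2SvPAs control replicate 2 or 3), 1 to 2 falls in C57BL6J, 7 rises and 1 fall in 129S2SvPAs, 0 to 1 member lower in 129S2SvPAs anti-GBM GN and 4 to 8 lower in 129S2SvPAs controls. In the same order, the shares of all genes were 2.79% to 5.82%, 0.629% to 3.75%, 7.7% to 12.2%, 7.13% to 9.98%, 3.17% to 5.41% and 2.6% to 6.34%. The cause of these changes in the calls was not tested.

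The turned values, none called, were these. With the pan-endothelial covariate, the strain difference in anti-GBM GN became 0.28 for Nos3, 0.37 for Pecam1 and 0.16 for Robo4, and that in controls 0.01 for Nos3, 0.13 for Ehd3, 0.09 for Cdh5 and 0.55 for Emcn. The Emcn responses became -1.36 in 129S2SvPAs and -0.74 in C57BL6J, and the difference of responses -0.62 for Emcn and -0.18 for Cdh5. With the proximal tubule covariate, the strain difference in anti-GBM GN became -0.02 for Esm1 and 0.22 for Pecam1, and the C57BL6J response of Gpihbp1 -0.05. Leaving out each array in turn, the strain difference in anti-GBM GN ran from -0.39 to 0.02 for Nos3, with 0.0017 in between, from -0.38 to 0.01 for Robo4 and from -0.01 to 0.55 for Apold1. The difference of responses of Emcn ran from -0.19 to 0.82. Signal near the floor limits Apold1 in 129S2SvPAs controls.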

Other observations

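Markers of other vascular beds ran from values at the array medians to high ones. The lymphatic gene Lyve1 and the arterial genes Gja5 and Bmx did not pass the filter on low values, and the lymphatic factor Prox1 had group means of 2.95 to 3.08. Flt4 and Pdpn, tested as part of the lymphatic list, had group means of 5.86 to 7.57 and 6.07 to 8.64. Both rose in 129S2SvPAs, by 1.12 and 1.55 (adjusted p = 0.0447 and 0.000492 in limma), and were named after their values were seen. With Lyve1 below the filter and Prox1 on the floor, the levels of Flt4 and Pdpn are not read as a sign of lymphatic vessels. The mean of 3 arterial genes tested was 7.99 to 8.27 in 129S2SvPAs anti-GBM GN, against 7.38 to 8.40 in 129S2SvPAs controls, and 8.34 to 8.79 in C57BL6J anti-GBM GN, against 8.86 to 9.20 in C57BL6J controls. None of these 3 genes was called with anti-GBM GN in either strain in limma, and at an unadjusted p under 0.05 1 was higher in 129S2SvPAs and 1 lower in C57BL6J. Of the peritubular and venous list, which holds Plvap, 2 of 4 genes rose in 129S2SvPAs, Plvap and Igfbp3, where 10.6% of all genes rose. Igfbp3 had a mean of 9.08 in 129S2SvPAs anti-GBM GN and 6.78 in 129S2SvPAs controls, and was named after its values were seen.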
